A study of Homo sapiens with 9 samples.

Results

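The phagocyte NADPH oxidase was followed here through 7 genes taken by symbol from a table of 56541 genes, namely CYBB, CYBA, CYBC1, NCF1, NCF4, RAC1 and RAC2. Each symbol had 1 entry in the table. All 7 passed the filter on low counts in both comparisons. The family was picked by name with the results of both comparisons already known, and CYBB was among the genes that rose most. The values, counts and p-values of the 7 genes therefore describe the data and do not count as an independent test of the family.

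RNA was sequenced from MOLM-13 cells, a line of human acute myeloid leukaemia labelled as coming from peripheral blood, in 9 libraries, 3 per group. RNA-seq of total RNA covered the genotypes shCONTROL and shBCLAF1, which carry a control hairpin or a hairpin against BCLAF1, a nuclear protein tied to RNA processing. The RIP group was RNA recovered with BCLAF1 from shCONTROL cells. Every sample, controls included, had 4 days of doxycycline at 200 ng/µL as the labels give it, and all carried the same batch label. The labels name no clone, no second hairpin and no mock precipitation, and the RIP started from more cells per sample than RNA-seq did. They do not say whether the replicates were separate cultures, so p-values measure the spread between these libraries, which may be technical.

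The oxidase of phagocytes makes superoxide from oxygen with electrons from NADPH. Its catalytic core lies in the membrane as a pair of proteins, gp91phox (CYBB, also called NOX2) and p22phox (CYBA), and CYBC1 (also called Eros) is a chaperone needed for a stable gp91phox protein. In resting cells the organizer p47phox (NCF1) and the subunit p40phox (NCF4) stay in the cytosol. On stimulation they move to the membrane with a Rac GTPase, which is RAC2 above all in neutrophils, and the core becomes active. Loss of function of CYBB, CYBA, CYBC1, NCF1 or NCF4 causes chronic granulomatous disease, and the oxidase genes are raised as myeloid cells mature.

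The regions before the start sites of CYBB, NCF1 and CYBA are shown. These genes rose after knock-down by 2.64, 0.48 and 0.65 on the log2 scale. Whether their upstream letters bear on these changes was not tested. RefSeq's promoter table (GRCh38.p14) held 4 of the 7 genes, but the CYBC1 window belongs to a start 1026 bases inside the annotated gene and is left out. Each line gives the 250 bases that end just before the annotated start, 5′ to 3′ on the strand of the gene. Capitals mark GAGGAA, a core of sites for ETS factors such as PU.1, and CCAAT, the CCAAT box, on either strand.
CYBB: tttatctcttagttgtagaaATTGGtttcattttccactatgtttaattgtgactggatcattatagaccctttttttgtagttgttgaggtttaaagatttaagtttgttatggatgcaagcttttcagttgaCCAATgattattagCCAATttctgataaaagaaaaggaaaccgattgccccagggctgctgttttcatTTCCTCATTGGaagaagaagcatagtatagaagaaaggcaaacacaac
NCF1: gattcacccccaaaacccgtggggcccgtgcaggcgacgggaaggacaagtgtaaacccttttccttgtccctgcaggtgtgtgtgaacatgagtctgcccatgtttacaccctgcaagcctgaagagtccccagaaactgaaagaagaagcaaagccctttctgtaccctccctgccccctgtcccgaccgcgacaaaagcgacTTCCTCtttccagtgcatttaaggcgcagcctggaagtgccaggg
CYBA: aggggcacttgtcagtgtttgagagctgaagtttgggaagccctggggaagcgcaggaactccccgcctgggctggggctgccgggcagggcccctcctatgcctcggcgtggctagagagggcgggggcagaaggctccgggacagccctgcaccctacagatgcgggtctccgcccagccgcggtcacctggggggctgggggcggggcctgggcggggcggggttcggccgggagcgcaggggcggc
The CYBB window lies at chrX:37779809-37780058 on the plus strand, the NCF1 window at chr7:74773761-74774010 on the plus strand and the CYBA window at chr16:88651054-88651303 on the minus strand. CYBB held 1 match to GAGGAA, directly beside 1 of its 4 CCAAT matches. NCF1 held 1 match to GAGGAA at a like distance, with its first base 45 bases before the start against 48 in CYBB, and no CCAAT. CYBA held neither. Of 35116 promoter windows of the same length, 23.6% held GAGGAA and 32.0% held CCAAT.

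Most other motifs searched also differed between the windows. GAAA repeated after 2 bases of any kind, a pattern of interferon response sites, was found 2 times in CYBB and 1 time in NCF1, against 3.02% of all windows with at least 1 match. The GC box GGGCGG was found 6 times in CYBA and not in the windows of CYBB or NCF1, against 42.6% of all windows. Of the C/EBP pattern TTNNGNAA, present in 33.2% of all windows, CYBA held 1 match. TATAAA, in 10.7% of all windows, was in none of the 3. No match of another motif overlapped the GAGGAA or CCAAT matches, all searches covered both strands, and a match is a description of letters and not of binding. GC content was 34.0% in CYBB, 56.4% in NCF1 and 73.6% in CYBA, with a median of 58.0% over all windows.

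The libraries held 25819144 to 36635268 estimated counts each. Levels are given as CPM, the count relative to library size after TMM scaling over all 9 libraries, and they are comparable for 1 gene between libraries but not between genes, since no transcript lengths were used. BCLAF1 itself measured 325, 328 and 312 CPM in shCONTROL and 115, 125 and 99.9 CPM in shBCLAF1, a fall to 35.3% of the control on the fitted scale (log2 fold change -1.50, SE 0.08; adjusted p 2.06e-04 by edgeR's quasi-likelihood test). The myeloid genes SPI1, FLT3, CD33, LYZ and MPO had counts in every group, while KIT and CD14 were listed at 0 in all 9 libraries. Of defining markers of other lineages, CD3E, MS4A1, PAX5, GNLY, HBB and PF4 were listed at 0 throughout. TRAC was not, and its mean fell from 25.6 to 13.0 CPM after knock-down (log2 fold change -0.97, adjusted p 0.00178). It did not pass in the RIP (log2 fold change 0.13, adjusted p 0.313). NKG7, at a mean of 19.5 CPM in shCONTROL against 3.19 for RIP libraries, was depleted there (log2 fold change -2.59, adjusted p 2.90e-04). HBA2, listed at 0 in all RNA-seq libraries, measured 38.9 and 57.6 CPM in RIP replicates 1 and 3 and was listed at 0 in replicate 2. The part of these markers in the results was not tested.

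After knock-down of BCLAF1, 6 of the 7 oxidase genes rose and 0 fell, by an adjusted p under 0.05 (edgeR's quasi-likelihood test, Benjamini-Hochberg over all 16961 genes tested). Of all genes tested, 15.5% were higher and 16.9% lower. All 7 genes had shBCLAF1 libraries above every shCONTROL library, which was the case for 24.2% of the genes tested. The median log2 fold change of the 7 was 0.48, beside 0.02 over all genes tested. Only CYBB rose by at least 1 on the log2 scale.

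CYBB (ENSG00000165168, chrX:37780059-37813461), the catalytic subunit, measured 12.7, 10.7 and 11.4 CPM in the shCONTROL libraries and 75.8, 73.9 and 66.8 CPM in the shBCLAF1 libraries. Every shBCLAF1 library stood far above every shCONTROL library. The fitted change was 6.22-fold (log2 fold change 2.64, SE 0.09, adjusted p 8.17e-05), and 0.643% of the genes tested had a higher log2 fold change. Over 12 alternative fits its log2 fold change ran from 2.59 to 2.72.

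CYBA (ENSG00000051523, chr16:88643289-88651053), the partner of CYBB in the membrane, measured 138, 139 and 153 CPM in shCONTROL and 213, 201 and 259 CPM in shBCLAF1. Replicate 3 was the highest library of both groups, and the groups did not overlap. The fitted change was 1.56-fold (log2 fold change 0.65, SE 0.10, adjusted p 0.00502). CYBB counts were 0.0809 ± 0.00946 per CYBA count within the shCONTROL libraries and 0.327 ± 0.0605 within the shBCLAF1 libraries (mean ± SD, n = 3 each). This ratio does not depend on scaling between libraries, but neither gene's length enters it, so it is no ratio of molecules.

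CYBC1 (ENSG00000178927, chr17:82442586-82450752), the chaperone of the core, measured 73.3, 77.3 and 70.9 CPM in shCONTROL and 92.8, 86.6 and 105 CPM in shBCLAF1. The log2 change of 0.36 (SE 0.08, adjusted p 0.0152) was the weakest call among CYBB, CYBA and CYBC1. The call was lost without shCONTROL replicate 1 (adjusted p 0.0541), without shCONTROL replicate 3 (0.0589) and with a block for the replicate number (0.0546), within a range of 5.16e-05 to 0.0589 over 12 alternatives.

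**Figure D1:**
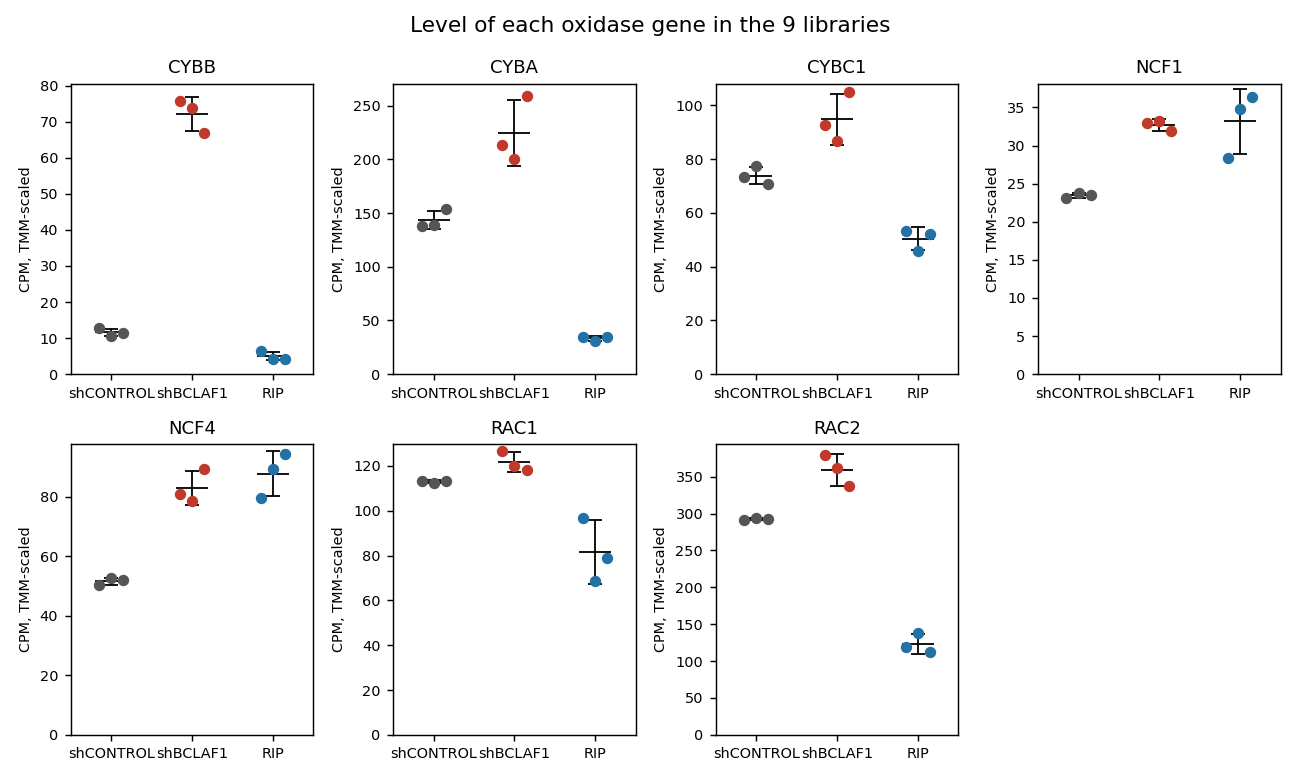
TMM-scaled CPM of the 7 oxidase genes in each library, by group, with each gene on its own axis from 0. Points are libraries, the long bar is the group mean and the error bar its SD (n = 3); CYBB shows the widest relative gap between shBCLAF1 and shCONTROL, and NCF1 and NCF4 are the 2 members whose RIP libraries lie above shCONTROL.

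Among the cytosolic subunits, NCF4 (ENSG00000100365, chr22:36861006-36878015), which encodes p40phox, measured 50.3, 52.6 and 52.0 CPM in shCONTROL and 80.9, 78.6 and 89.4 CPM in shBCLAF1. The shCONTROL libraries lay close together and all shBCLAF1 libraries above them. Its change was 1.61-fold (log2 fold change 0.69, SE 0.06, adjusted p 5.60e-04). The antisense gene NCF4-AS1 had 18 counts in shBCLAF1 replicate 3 and was listed at 0 in the other 8 libraries. The sources do not state whether counting used strand.

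NCF1 (ENSG00000158517, chr7:74774011-74789315), the organizer p47phox, measured 23.1, 23.7 and 23.5 CPM in shCONTROL and 33.0, 33.3 and 31.9 CPM in shBCLAF1. The change of 1.40-fold (log2 fold change 0.48, SE 0.05, adjusted p 0.00114) came with little spread in either group. Within a library there were 0.454 ± 0.00479 NCF1 counts per NCF4 count in shCONTROL and 0.396 ± 0.0349 in shBCLAF1 (mean ± SD, n = 3 each). NCF1 lies between 2 near-identical transcribed pseudogenes on chromosome 7, NCF1B at chr7:73220639-73235945 and NCF1C at chr7:75156578-75171998, so reads can be split among the copies in ways a gene table does not show. NCF1C rose as well, by 0.59 on the log2 scale (SE 0.09, adjusted p 0.00521). NCF1B had 2 entries in the table, with log2 fold changes of 0.41 (ENSG00000290838, adjusted p 0.0362) and 0.44 (ENSG00000182487, adjusted p 0.359).

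With the 4 entries of NCF1 and its copies summed, the log2 fold change was 0.49 (SE 0.04, adjusted p 6.19e-04), a fit chosen after seeing the data. NCF1 held 43.1% ± 0.790 of the summed counts in shCONTROL and 42.8% ± 2.02 in shBCLAF1 (mean ± SD, n = 3 each). The share thus differed by less than the spread between libraries. Of the NCF1B entries only ENSG00000290838 was called, and its call was lost in 7 of 12 alternatives. Among these were the fits without shCONTROL replicate 1, 2 or 3 and without shBCLAF1 replicate 2 or 3 (adjusted p 0.0527 to 0.111). Its adjusted p ranged from 0.00335 to 0.111 over the 12.

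**Figure D2:**
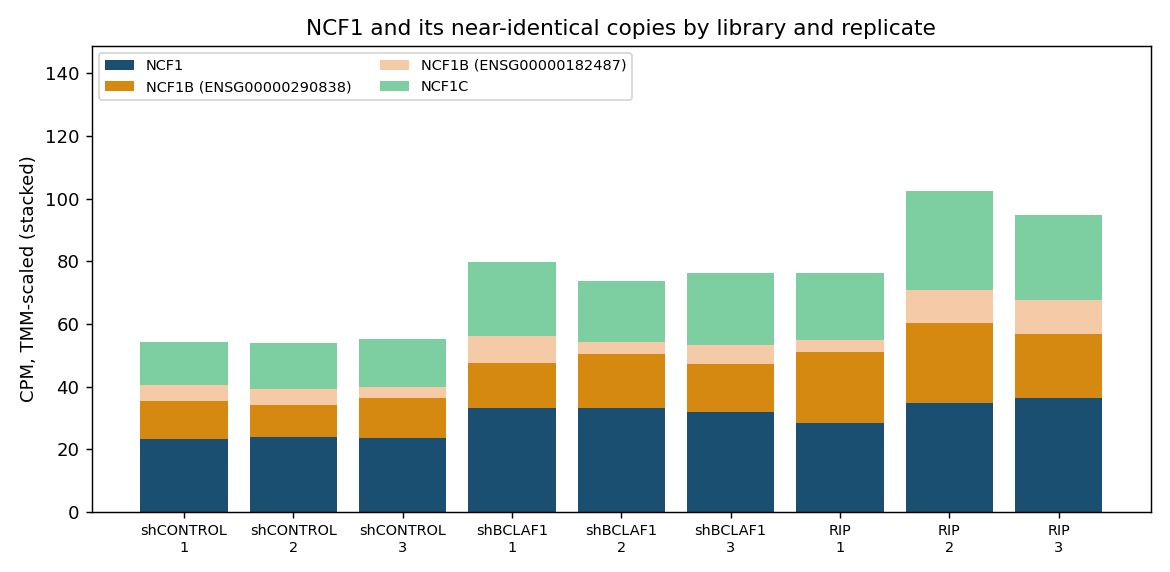
Stacked TMM-scaled CPM of NCF1 (bottom), the 2 NCF1B entries and NCF1C in each of the 9 libraries. The 3 shBCLAF1 and 3 RIP libraries stand above the 3 shCONTROL libraries, and the NCF1 part is a smaller share of the stack in the RIP.

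RAC2 and RAC1 had the smallest log2 fold changes of the 7 genes after knock-down. RAC2 (ENSG00000128340, chr22:37225270-37244269), the Rac of blood cells, measured 291, 294 and 292 CPM in shCONTROL and 379, 361 and 337 CPM in shBCLAF1. The log2 change was 0.30 (SE 0.05, adjusted p 0.00571), and the call was lost in a single fit of all 9 libraries (adjusted p 0.0663, within a range of 6.36e-08 to 0.0663 over 12 alternatives).

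RAC1 (ENSG00000136238, chr7:6374527-6403967), found in nearly all cell types, measured 113, 112 and 113 CPM in shCONTROL and 127, 120.1 and 118 CPM in shBCLAF1. The groups did not overlap, but the log2 change of 0.11 (SE 0.04, adjusted p 0.0807) did not pass. It passed under total-count scaling (0.16, adjusted p 0.0111), with DESeq2 (0.11, adjusted p 0.0349) and without shBCLAF1 replicate 3 (0.13, adjusted p 0.0423), within a range of 0.0111 to 0.659 over 12 alternatives. RAC2 counts per RAC1 count were 2.59 ± 0.0266 in shCONTROL and 2.95 ± 0.0850 in shBCLAF1 (mean ± SD, n = 3 each). The third paralogue, RAC3, best known from the nervous system, fell by 0.73 on the log2 scale (SE 0.12, adjusted p 0.00584), from 14.1 ± 1.25 to 8.46 ± 1.03 CPM (SD, n = 3 each).

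The RIP comparison asks which RNAs were recovered with BCLAF1 beyond their abundance in total RNA of the same cells. By the call rule, an adjusted p under 0.05 and a change of 1 or more in size on the log2 scale, 3 of the 7 genes were depleted and 0 enriched, against 13.5% and 11.0% of the 16727 genes tested. Without the minimum change 5 were lower and 2 higher, against 24.7% and 24.6% of all genes. The RIP libraries lay wholly below shCONTROL for 5 genes and wholly above it for 2, as they did for 35.2% and 31.8% of the genes tested. The median log2 fold change was -0.56 for the 7 and -0.05 over all genes tested. With total RNA as the only reference, these values do not part binding to BCLAF1 from background. Both comparisons share the shCONTROL libraries, so the values of a gene in the 2 comparisons are not independent.

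The 3 depleted genes were both membrane subunits and RAC2. CYBA measured 35.0, 30.9 and 34.7 CPM in the RIP, 4.30-fold lower than in shCONTROL (log2 fold change -2.10, SE 0.09, adjusted p 1.53e-04), and 5.08% of the genes tested had a lower log2 fold change. RAC2 measured 119.6, 138 and 112 CPM (log2 fold change -1.25, SE 0.11, adjusted p 4.63e-04). CYBB measured 6.35, 4.32 and 4.27 CPM (log2 fold change -1.22, SE 0.20, adjusted p 0.00374). These CYBB levels rest on 162, 122 and 123 counts, and replicate 1 was the highest. All 3 kept their call in each of 13 alternatives, and against shCONTROL and shBCLAF1 averaged, which brings in the high shBCLAF1 level, the log2 fold change of CYBB was -2.53.

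CYBC1 and RAC1 were lower in the RIP without reaching the minimum change. CYBC1 measured 53.4, 45.7 and 52.2 CPM (log2 fold change -0.56, SE 0.09, adjusted p 0.00294). RAC1 measured 96.9, 68.7 and 78.8 CPM, the widest relative spread in the RIP after CYBB (log2 fold change -0.48, SE 0.13, adjusted p 0.0249). Its adjusted p was over 0.05 in the fits without shCONTROL replicate 1, 2 or 3 (0.0791, 0.0699 and 0.0786) and without RIP replicate 3 (0.0625).

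Only the 2 members that encode cytosolic phox subunits stood above shCONTROL in the RIP, also below the minimum change. NCF4 measured 79.7, 89.4 and 94.6 CPM (log2 fold change 0.76, SE 0.09, adjusted p 0.00109), and NCF1 measured 28.4, 34.7 and 36.4 CPM (log2 fold change 0.49, SE 0.12, adjusted p 0.0149). Without shCONTROL replicate 1, 2 or 3 the adjusted p of NCF1 was 0.0591, 0.0548 and 0.0564. Total-count scaling moved the median of all genes in the RIP by -0.11 on the log2 scale, and NCF4 and NCF1 stayed above 0 under it.

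The copies of NCF1 had larger RIP values than NCF1 itself. The log2 fold change was 0.95 (SE 0.14, adjusted p 0.00276) for NCF1B ENSG00000290838, 0.87 (SE 0.17, adjusted p 0.00640) for NCF1C and 0.85 (SE 0.43, adjusted p 0.146) for NCF1B ENSG00000182487. With all 4 entries summed it was 0.74 (SE 0.13, adjusted p 0.00411). NCF1 held 36.5% ± 2.35 of the summed counts in the RIP against 43.1% ± 0.790 in shCONTROL (SD, n = 3 each). The 3 RIP shares, 37.2%, 33.9% and 38.4%, lay below all shCONTROL shares, 42.7%, 44.0% and 42.5%.

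**Figure D3:**
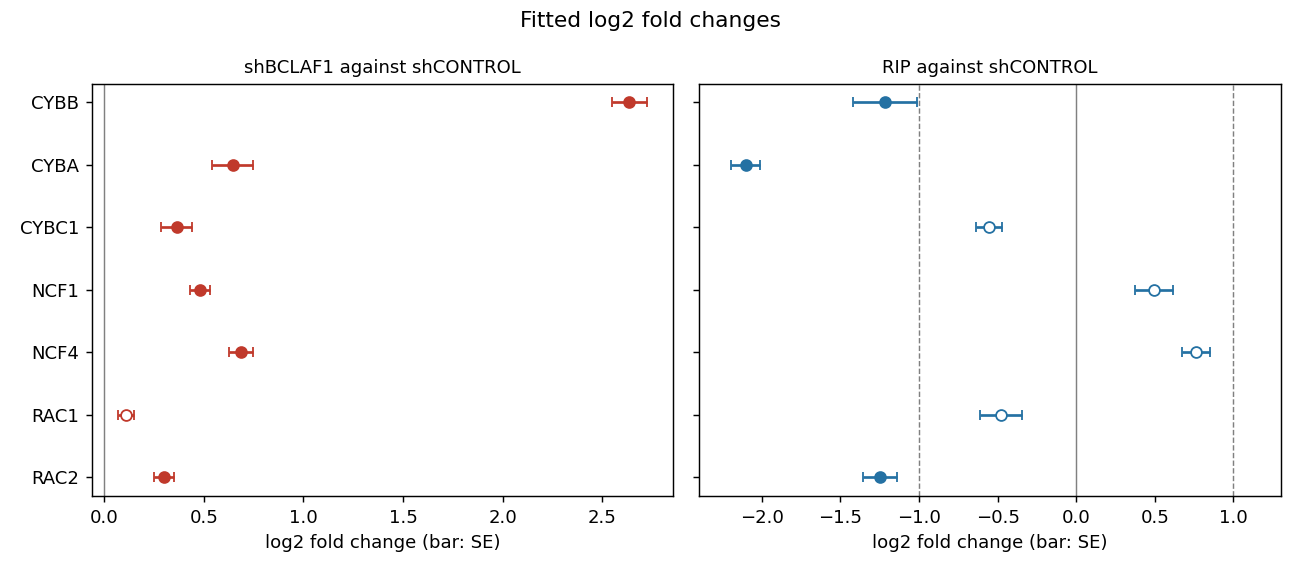
Fitted log2 fold changes with their SE for the 7 oxidase genes, after knock-down on the left and in the RIP on the right, with different x axes. Filled circles passed the call rule of the comparison, and dashed lines mark the RIP minimum of 1; CYBB stands at 2.64 on the left, and CYBA at -2.10 is lowest on the right.

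Likeness between genes was measured as the root-mean-square difference of their log2 profiles over the 9 libraries, each centred on its own mean. Among the 7 genes, NCF1 and NCF4 were the most alike pair (0.14), followed by RAC1 and CYBC1 (0.18). CYBB and NCF4 were the least alike (1.58). CYBA was the member closest to CYBB (0.82), at rank 65 of 11855 genes compared with CYBB. The 3 groups drive these distances, which are a description with no test.

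The 5 genes of the whole table with profiles closest to CYBB were CEBPE (0.34), GGT5 (0.40), S100A9 (0.46), CNR2 (0.47) and SUCNR1 (0.52). CEBPE is a transcription factor of late granulocyte maturation, S100A9 a calcium-binding protein abundant in phagocytes, GGT5 an enzyme that acts on leukotriene C4, CNR2 a cannabinoid receptor of immune cells and SUCNR1 the succinate receptor. After knock-down their log2 fold changes were 2.81, 2.12, 3.61, 1.67 and 1.46 in that order. In the RIP they were -0.74, -1.10, -1.16, -1.35 and -1.92. CEBPE did not pass there (adjusted p 0.0571 by edgeR's quasi-likelihood test), while the other 4 were called depleted. The RIP levels of CEBPE rest on 31, 26 and 30 counts and those of S100A9 on 13, 32 and 30. The 5 genes were picked by likeness over these same libraries, so changes like those of CYBB follow from the choice.

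Markers of mature phagocytes moved beside the oxidase genes in part. Of 9 monocyte and macrophage markers, CD14, CD163, FCGR3A, FCN1, MRC1 and S100A12 were listed at 0 in all libraries, while S100A8 (log2 fold change 2.76, adjusted p 2.35e-04) and S100A9 (3.61, adjusted p 7.97e-05) rose after knock-down. The S100A8 call was lost in a single fit of all 9 libraries (adjusted p 0.0753, within a range of 2.48e-35 to 0.0753 over 11 alternatives). VCAN, at 37.4, 29.0 and 7.54 CPM in shCONTROL and 0, 20.8 and 9.19 CPM in shBCLAF1, did not pass (log2 fold change -1.29, SE 1.37, adjusted p 0.534), and its groups overlapped. The summed level of the list was 10.8 to 40.2 CPM in shCONTROL and 32.6 to 51.7 CPM in shBCLAF1, ranges that overlapped. Of 8 neutrophil markers, CEACAM8, FCGR3B, LTF and MMP8 were listed at 0, and the sum was 241 to 269 CPM in shCONTROL and 256 to 257 CPM in shBCLAF1, nearly all of it CSF3R, which did not pass (log2 fold change -0.04, adjusted p 0.600). CXCR2, on the same list, rose from 12.2 ± 1.35 to 18.7 ± 2.32 CPM (SD, n = 3 each; log2 fold change 0.62, adjusted p 0.0119). Lysozyme (LYZ), an enzyme abundant in phagocytes, measured 785, 671 and 731 CPM in shCONTROL, 2818, 2664 and 2433 CPM in shBCLAF1 and 45.5, 34.3 and 60.4 CPM in the RIP. It rose after knock-down (log2 fold change 1.86, SE 0.08, adjusted p 1.19e-04) and was depleted in the RIP (-3.97, SE 0.23, adjusted p 2.24e-04). LYZ was taken from another list, 11 markers of the AML line, of which 9 were tested. After knock-down 3 of the 9 were higher and 3 lower, beside 15.5% and 16.9% of all genes tested, with a median of -0.10. In the RIP 1 of the 9 was depleted and 0 enriched, beside 13.5% and 11.0% of all genes tested. The part of these markers in the rise of the oxidase genes was not tested. In bulk RNA, more cells of a mature state and more RNA per cell cannot be told apart.

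Of 28 genes that signal to the oxidase, 25 were tested after knock-down, of which 9 (36%) were higher and 4 (16%) lower, beside 15.5% and 16.9% of all genes tested. The median log2 fold change was 0.04, beside 0.02 over all genes. The largest changes were those of PIK3R5 (1.07, SE 0.05, adjusted p 1.41e-04), a regulatory subunit of PI3-kinase gamma, of the p38 kinase MAPK14 (0.78, SE 0.04, adjusted p 1.85e-04) and of PRKCB (0.61, SE 0.05, adjusted p 5.01e-04), a protein kinase C that phosphorylates p47phox. In the RIP 7 of the 25 (28%) were enriched and 0 depleted, beside 11.0% and 13.5% of all genes tested, with a median of 0.52 beside -0.05. The highest were PRKCZ (1.71, adjusted p 0.00333) and the Rac exchange factors PREX1 (1.50, adjusted p 0.00373) and VAV1 (1.40, adjusted p 7.87e-04).

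Of 19 tested genes that dispose of superoxide and hydrogen peroxide, 8 (42.1%) were higher and 2 (10.5%) lower after knock-down, beside 15.5% and 16.9% of all genes, and the median was 0.05. GCLM, a subunit of the enzyme that starts glutathione synthesis, rose by 0.99 on the log2 scale (SE 0.11, adjusted p 0.00136), and catalase (CAT) rose by 0.91 (SE 0.07, adjusted p 3.81e-04). Thioredoxin reductase TXNRD1 fell by 0.53 (SE 0.04, adjusted p 4.15e-04). In the RIP 9 of 20 tested genes (45%) were depleted and 0 enriched, beside 13.5% and 11.0% of all genes, with a median of -0.83. The lowest were GCLM (-2.21), thioredoxin TXN (-2.05) and the peroxiredoxin PRDX6 (-1.84), with adjusted p of 2.24e-04, 3.50e-04 and 4.62e-04.

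Of 16 transcription factors known from work on the CYBB promoter, 15 were tested after knock-down. Of these, 5 (33.3%) were higher and 5 (33.3%) lower, beside 15.5% and 16.9% of all genes tested, with a median of 0.00. CEBPE had the largest rise, from 1.81 ± 0.304 CPM in shCONTROL to 13.0 ± 1.18 in shBCLAF1 (mean ± SD, n = 3 each). This is 2.81 on the log2 scale (SE 0.16, adjusted p 2.06e-04). GATA2, a factor of early progenitors, fell by 1.00 (SE 0.05, adjusted p 1.64e-04), and CEBPB fell by 0.69 (SE 0.09, adjusted p 0.00224). In the RIP 0 of the 15 were enriched or depleted by edgeR's test and the minimum change. Of all genes tested, 11.0% were enriched and 13.5% depleted. The list's median was 0.36, beside -0.05 over all genes. The other NADPH oxidases and their partners (NOX1, NOX3, NOX4, NOX5, DUOX1, DUOX2, DUOXA1, DUOXA2, NOXO1 and NOXA1) were listed at 0 in all 9 libraries, so CYBB was the only NOX or DUOX enzyme with counts.

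**Figure D4:**
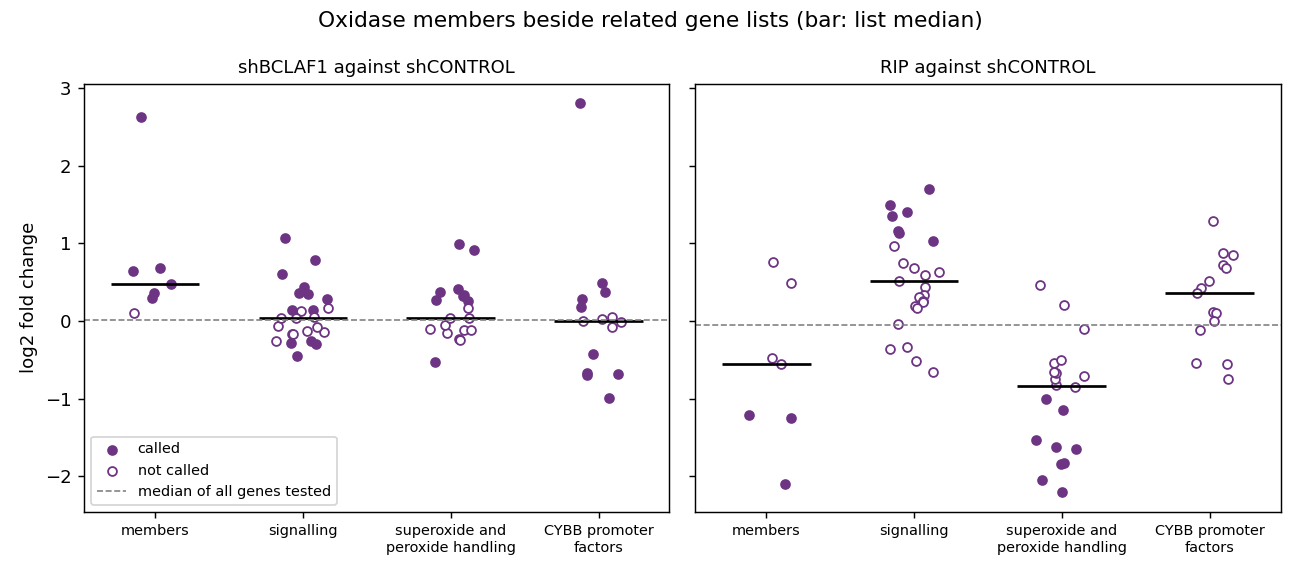
Log2 fold changes of the 7 oxidase genes and of 3 related gene lists, after knock-down on the left and in the RIP on the right, on 1 shared y axis. Each point is a gene, filled if it passed the call rule, the black bar is the list's median and the dashed line the median of all genes tested; after knock-down the list medians of 0.04, 0.05 and 0.00 lie at that line and the members' median of 0.48 above it.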

How the data were processed

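The authors deposited 1 table of estimated counts (expected counts) per gene for 9 libraries, not normalized. STAR 2.7.11b, StringTie 2.2.3 and hg38 are named in the submitters' processing notes, with no role given. Annotation and strand setting are not given in the sources used here. Per the labels' protocols, libraries were stranded, depleted of ribosomal RNA and read in pairs. The deposited values were whole numbers and needed no rounding. Some genes stood at 0 in 1 library beside high values in its replicates, so a gene without counts is called listed at 0. Another 1 entry named no gene, with 2.18% to 3.75% of the counts in 8 libraries, and was left out. The floor of 3 counts equals 0.0819 to 0.116 CPM and reflects counting error alone, PCR duplicates being included.

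Each comparison was fitted on its own 6 libraries with edgeR 4.0.16 in R 4.3.3, using the default low-count filter by group, TMM scaling, a prior count of 2 and the two-sided quasi-likelihood test, on all genes with Benjamini-Hochberg adjustment at 0.05. SEs were derived from coefficients and F statistics. The procedure was also run on simulated counts with less spread between libraries than these data, and no result here rests on that run. DESeq2 1.42.0 and other settings were alternatives. Profiles used log2(CPM + 0.5) for genes with a symbol, a mean of at least 50 counts and no 0. Named were all members, their copies, the 5 profiles closest to CYBB and, per related list and comparison, up to 3 called genes with the largest change in size. Markers were also named to check the cell type, some after their values were seen. A further gene covered by the rule for names is not reported here. The members and lists were chosen with earlier results of these data known. Gene positions and promoters came from RefSeq (GRCh38.p14), the build named in the notes.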

Additional observations from a re-analysis of the deposited data

How the results depend on the processing

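No member changed direction in any alternative. After knock-down 5 to 7 members were higher and 0 lower under other scaling, filters, tools and samples. With 1 library left out, 5 to 7 were higher and 0 lower. Genes called higher ran from 1129 of 17419 (single fit of all 9 libraries, 5 members) to 3244 of 16961 (total counts, 7 members). Genes called lower ran from 1318 of 17419 (that single fit) to 3475 of 18612 (DESeq2). With a minimum log2 fold change of 1, 1 member was higher. The share of all genes with that minimum is not given here. In the RIP 3 were depleted and 0 enriched in every fit, including each with 1 library left out, and 5 and 2 with no minimum change. Of all genes, 1865 of 16727 (replicate block) to 2888 of 17112 (without RIP replicate 1) were depleted in these fits. Enriched were 1471 of 16727 (total counts) to 2153 of 17419 (against shCONTROL and shBCLAF1 averaged). Of 85 alternative values of members after knock-down, 4 lost and 3 gained a call, in CYBC1, RAC2 and RAC1; none of 92 did so in the RIP. BCLAF1 ran from -1.58 to -1.42. Same-numbered libraries correlated at 0.02 to 0.08 after knock-down, each library best with its own number, and at -0.03 to 0.01 in the RIP. The values after knock-down are small and do not settle whether the replicate numbers pair those samples. With the replicate number as a block 5 members were higher after knock-down (CYBC1 lost) and 3 depleted in the RIP. Of all genes, 2271 of 16961 were higher and 1865 of 16727 depleted with that block.

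For named genes that are no members, the alternatives were added after seeing the data. In the RIP, RAC3 (0.06) turned to -0.045 under total counts and was 0.44 against shCONTROL and shBCLAF1 averaged. With 1 library left out it ran from -0.014 (without shCONTROL replicate 2) to 0.15 (without RIP replicate 2), with -0.0039 without RIP replicate 1. The RIP call of S100A9 was lost in 6 alternatives and that of GGT5 in 3. A RIP call was gained by NCF1B ENSG00000290838 in 2 alternatives. NCF1B ENSG00000182487, NCF1C and CEBPE each gained one in 1 alternative. The highest log2 fold changes of the copies in any alternative were 1.03, 1.20 and 1.01, in the order named. A single fit of all 9 libraries called 1129 genes higher and 1318 lower after knock-down, against 2625 and 2859. The CYBB level in the RIP rests on 122 to 162 counts, which limits its precision.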
